A study of Caenorhabditis elegans with 15 samples.

Results

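Adult worms were compared with worms of the fourth larval stage (L4), the last larval stage before adulthood, across the genes of Caenorhabditis elegans. The comparison rests on 10 of the 15 arrays of the series, 5 labelled Adult and 5 labelled L4. The other 5 arrays, of the sleep-like state that precedes the last molt (L4-lethargus), enter the fit for its estimate of spread and are described only where stated. All animals were hermaphrodites of the wild-type strain N2, grown at 20 °C on DA837 bacteria after a hatch without food, picked by hand at 22.5 °C and frozen in batches of 20 animals. The labels call the Adult animals young adults, and the sources used here give no age for them. L4 animals were taken 42 hours after arrested first-stage larvae were fed, and were moving and feeding. Each array therefore holds RNA of a pool of whole animals, with all tissues mixed. Whether pools of 1 stage came from separate cultures is not stated, so the p-values measure the spread between pools. Per the labels, Adult pools yielded 75.3 ± 10.3 ng of RNA and L4 pools 22.3 ± 7.0 ng (mean ± SD).

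Between these stages a hermaphrodite changes mainly in its gonad and its skin. The germ line first makes a limited store of sperm and then switches to oocytes, which are loaded with maternal RNAs, with proteins that hold these RNAs silent, and with yolk taken up from the body cavity. The epidermis lays a temporary matrix and then a new cuticle of collagens under the old one, and adults do not molt again. Adult body cells no longer divide, whereas germ cells divide and pass through meiosis throughout early adulthood. In whole animals, fewer cells of a type and less RNA per cell cannot be told apart, and values scaled to a like distribution on every array show shares of the RNA rather than amounts per worm.

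Levels are log2 values made by the authors with RMA, and a difference is Adult minus L4 on that scale. Genes were called at an adjusted p of 0.05 or less in a limma fit. A stage whose mean lay below 5.56, the level under which 95% of the values of 32 control probe sets of other organisms lie, has only a bound, and its fold is written as at least N-fold. Arrays of the same stage correlated at 0.986 to 0.997 over all probe sets, and Adult arrays with L4 arrays at 0.886 to 0.905. Adult replicate 2 stood somewhat apart, with a mean correlation of 0.987 to the other Adult arrays against 0.994 to 0.995 for those. The 3′ minus 5′ signal of ubiquitin, a measure of RNA or amplification quality, was 4.28 ± 0.19 in Adult arrays and 4.63 ± 0.10 in L4 arrays. That of catalase was also lower in Adult (2.67 ± 0.26 and 3.22 ± 0.32). Those of actin (0.12 and 0.05) and Gapdh (0.29 and 0.12) were slightly higher in Adult. The RNA integrity number was above 5 in both stages. Hybridisation controls, which are added in equal amounts, read 11.35 ± 0.08 in Adult arrays and 11.70 ± 0.13 in L4 arrays (SD, n = 5 each). The part of these offsets in the results was not tested beyond the other scalings reported below.

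Of 17118 genes, 5274 were higher in Adult (30.8%) and 4912 were lower (28.7%), while 6932 did not pass. Much of this was modest in size, since the median difference was 0.77 among higher genes and -0.95 among lower genes. Differences of at least 1 were seen for 1911 higher and 2322 lower genes, and differences of at least 5 for 70 higher and 110 lower genes. In 4150 of the higher and 4064 of the lower genes the Adult and L4 arrays did not overlap. A switch across the background level, with every Adult array above it and every L4 array below it, was found for 298 higher genes. The opposite switch was found for 390 lower genes. The median over all genes was 0.08, and of all calls 51.8% were higher in Adult. Centring each array on its median moved that median to 0.29 and the higher share to 68.6%, and scaling to the hybridisation controls moved them to 0.42 and 75.5%. The balance of higher and lower calls thus depends on the scaling, and the lists below are read against the median of all genes. List counts under scaling to the hybridisation controls stand beside 9851 higher and 3191 lower of all 17118 genes under it.

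**Figure D1:**
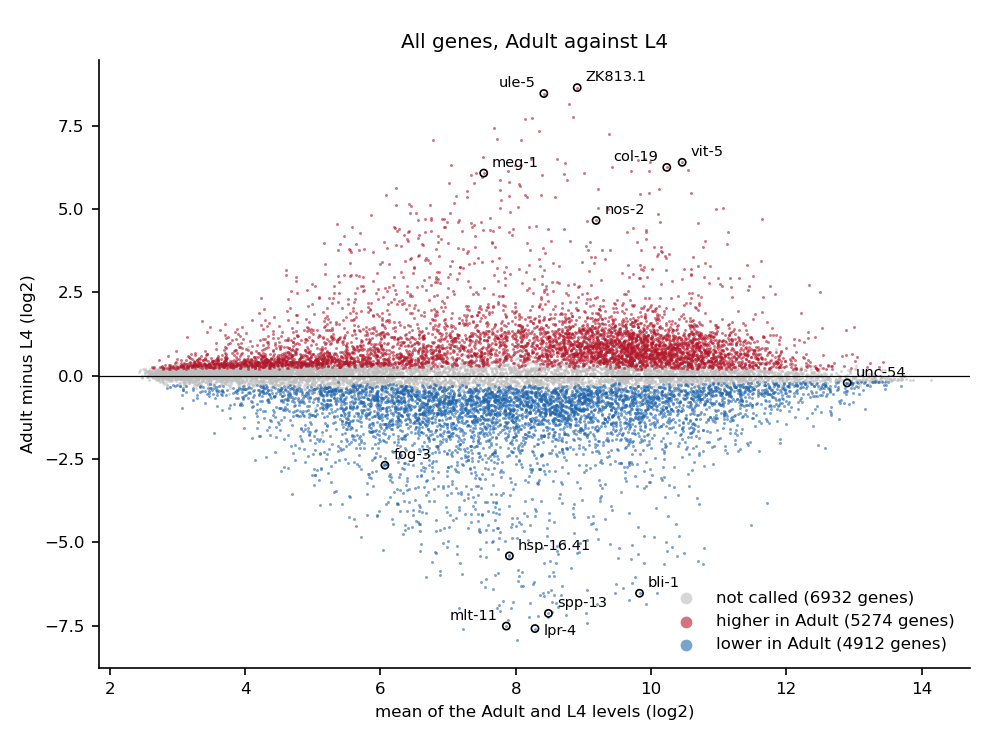
Adult minus L4 difference (log2, vertical) against the mean of the levels of both stages (log2, horizontal) for all 17118 genes, with genes higher in Adult in red, lower in blue and not called in grey. Differences reach 8.65 for ZK813.1 at the top, while unc-54, at a high level, lies at -0.22.

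The oocyte program was higher in Adult almost throughout. Of 28 measured RNA-binding proteins and other regulators of oocytes, 25 were higher in Adult, none were lower, and the median difference was 1.73 against 0.08 over all genes. Read without probe sets that share probes with other transcripts, 17 of them remained measured and their median was 1.15. nos-2, a Nanos-type repressor whose RNA is stored for the embryo, had 11.56, 11.34, 11.51, 11.65 and 11.54 in the Adult arrays, against 6.43, 6.54, 7.41, 6.98 and 6.93 in the L4 arrays. Every Adult array lay far above every L4 array (4.66 ± 0.18 SE, adjusted p = 3.73e-12). puf-5, a Pumilio-family repressor needed in oocytes, had 11.86, 11.70, 12.13, 12.18 and 11.88 in Adult, against 6.47, 7.32, 8.34, 8.10 and 7.38 in L4. The Adult values were tight (SD 0.20), whereas L4 spread more widely (SD 0.74). The zinc-finger proteins OMA-1 and OMA-2, which act together in oocyte maturation, differed in size, with oma-2 at 4.10 ± 0.19 and oma-1 at 2.80 ± 0.17. pos-1, a zinc-finger regulator of embryonic cell fate, rose by 3.86, although another probe set of the gene gave 2.33. rme-2, the yolk receptor of the oocyte, averaged 12.24 ± 0.09 in Adult and 9.46 ± 0.47 in L4, 6.84-fold higher in Adult.

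Regulators of the earlier germ line were also higher. gld-1, a translational repressor of meiotic germ cells, had 11.30, 11.33, 11.44, 11.25 and 11.32 in Adult, against 10.81, 11.13, 11.01, 10.80 and 10.65 in L4. The stages did not overlap, with a difference of 0.45 ± 0.09 (adjusted p = 0.000433), while another, dimmer probe set of gld-1 gave 1.88. In the Notch pathway that keeps germline stem cells, 6 of 9 genes were higher and 1 was lower. The receptor gene glp-1 had 10.97, 10.24, 10.93, 10.95 and 10.98 in Adult, against 8.88, 9.20, 9.37, 8.92 and 8.72 in L4. All Adult arrays lay above all L4 arrays, with Adult replicate 2 the lowest of its stage. Its germline targets sygl-1 and lst-1, which maintain stem cells, rose by 2.19 ± 0.13 and 1.29 ± 0.15.

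All 12 eggshell and egg-activation genes were higher in Adult, with a median of 3.37. perm-2, of the permeability barrier around the embryo, had 13.02, 12.74, 13.07, 13.09 and 13.03 in Adult, against 8.06, 7.62, 9.63, 8.73 and 7.98 in L4. It was thus near the upper end of the array's range in every Adult pool and 24.0-fold lower in L4 on average. cpg-3, a chondroitin proteoglycan of the eggshell, was 20.6-fold higher in Adult, and perm-4 rose by 4.04 on the log2 scale. cbd-1, the chitin-binding protein that carries the outer layer of the shell, was already at 11.28 ± 0.39 in L4 and reached 13.15 ± 0.10 in Adult, a difference of 1.87.

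Germ granules, the RNA-protein bodies around germ cell nuclei, contributed 14 higher and 2 lower genes of 19. Among them meg-1, which builds granules in embryos from RNA supplied by the mother, had 10.56, 10.45, 10.65, 10.56 and 10.63 in Adult, against 4.11, 4.34, 4.79, 4.46 and 4.73 in L4. L4 was below background throughout, so the Adult level was at least 32.2-fold higher. meg-3 and meg-4, of the same group, were at least 11.6-fold and 8.70-fold higher. Of 36 maternal genes for polarity, spindles and centrosomes of the first embryonic divisions 30 were higher and none lower. The Wnt ligand gene mom-2 was 8.39-fold higher and mei-2, a subunit of the katanin that trims the meiotic spindle, 5.15-fold. par-2, which marks the posterior cortex of the zygote, differed by 0.69 ± 0.16 and its stages overlapped, and other probe sets of the gene gave 0.46 and 1.27.

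Meiosis and DNA synthesis genes were higher by smaller and more even amounts. Of 35 synaptonemal complex and meiotic recombination genes 34 were higher, with a median of 1.12 and a largest difference of 1.96. lab-1, which protects chromosome cohesion in meiosis, had 11.03, 11.16, 11.01, 11.03 and 10.98 in Adult, against 8.61, 9.07, 9.66, 9.16 and 8.92 in L4. zim-1 and zim-2, zinc-finger proteins of chromosome pairing centres, were higher by 1.85 and 1.69. The exception was syp-1, a central element of the synaptonemal complex, with 10.47, 10.90, 10.47, 10.50 and 10.45 in Adult and 10.22, 10.56, 10.77, 10.35 and 10.39 in L4. Its stages overlapped and it did not pass (0.10 ± 0.12 SE, adjusted p = 0.937), although it was called higher under median-centring (0.31) and scaling to the hybridisation controls (0.44).

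Of 47 DNA replication and cell cycle genes, 45 were higher and none lower, with a median of 1.00. All 8 mcm genes, subunits and partners of the replicative helicase, were higher by 0.51 to 1.58. pcn-1, the sliding clamp of DNA polymerase, averaged 11.67 ± 0.14 in Adult and 10.68 ± 0.14 in L4. The 2 cyclin B genes cyb-2.1 and cyb-2.2 rose most in the list, by 3.19 ± 0.16 and 2.94 ± 0.18, and both are read from probe sets that share probes. cdc-25.3, a phosphatase gene of the cell cycle family outside the list, had 9.91, 9.82, 9.95, 9.94 and 9.92 in Adult, against 4.12, 4.52, 4.17, 3.79 and 4.00 in L4. It passed from below background in every L4 array to a clear signal in every Adult array, at least 20.4-fold.

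Small RNA factors were mostly higher, with exceptions. Of 33, 23 were higher and 5 lower, with a median of 0.61. hrde-1, a nuclear Argonaute of inherited silencing, had 9.68, 9.94, 9.93, 9.84 and 9.69 in Adult, against 7.11, 7.32, 7.64, 7.35 and 7.01 in L4, 5.78-fold higher in Adult. csr-1 and prg-1, the main germline Argonautes of licensing and of piRNAs, differed less, by 0.72 ± 0.09 and 0.44 ± 0.10. Lower in Adult were wago-10 (fell by 2.79), alg-1, a microRNA Argonaute of the soma (fell by 1.79), and alg-3 and alg-4, which act during sperm formation (fell by 0.97 and 1.32). Other probe sets gave -1.45 and -0.68 for alg-1, and -1.27 and a value of 0.03 below background for alg-4. csr-1, prg-1, alg-3 and alg-4 were named after their values were seen.

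Sperm genes did not move together. The 23 major sperm protein genes, whose product forms the sperm cytoskeleton and signals to oocytes, had gene means of 11.36 to 13.54 in Adult and 11.35 to 13.38 in L4. Differences ran from -0.03 to 0.37, and 3 of 23 were called, all higher. All 23 are read from probe sets that share probes, so signals of these near-identical genes are mixed, and 1 of the 23 could be measured without such probe sets, at 0.01. msp-142 stands for them, with 11.35, 11.60, 11.36, 11.25 and 11.27 in Adult and 11.02, 11.49, 11.61, 11.33 and 11.30 in L4, overlapping values that did not pass. Under scaling to the hybridisation controls all 23 were called higher, with a median of 0.45, close to that scaling's shift of all genes (0.42).

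Of 42 other sperm genes, 14 were higher (33.3%), 16 lower (38.1%) and 12 not called, against 30.8% higher and 28.7% lower of all genes. The balance turned to 18 higher and 10 lower under scaling to the hybridisation controls. fog-3, which sends germ cells into the sperm fate, had 4.80, 4.27, 4.92, 4.67 and 4.95 in Adult, against 7.67, 7.51, 7.25, 7.12 and 7.50 in L4. It lay below background in all Adult arrays and above it in all L4 arrays, at least 3.6-fold lower in Adult. fer-1, a membrane-fusion gene of sperm, was 3.54-fold lower, and spe-4, a presenilin of the sperm organelle, was 3.43-fold lower. spe-9, needed on the sperm surface at fertilisation, fell by 0.79. The name class spe had 18 of 29 genes lower and 3 higher, and 12 lower and 6 higher under that scaling. The ssp genes, which encode small proteins with a sperm-protein domain, went the other way, with 6 of 8 higher. ssp-37 had 10.73, 10.69, 10.72, 10.83 and 10.55 in Adult, against 7.76, 7.35, 8.52, 8.06 and 7.43 in L4, 7.37-fold higher in Adult. fog-1, a further sperm-fate gene, rose by 1.89 ± 0.08, opposite to fog-3. fer-1 and fog-1 were named after their values were seen.

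**Figure D2:**
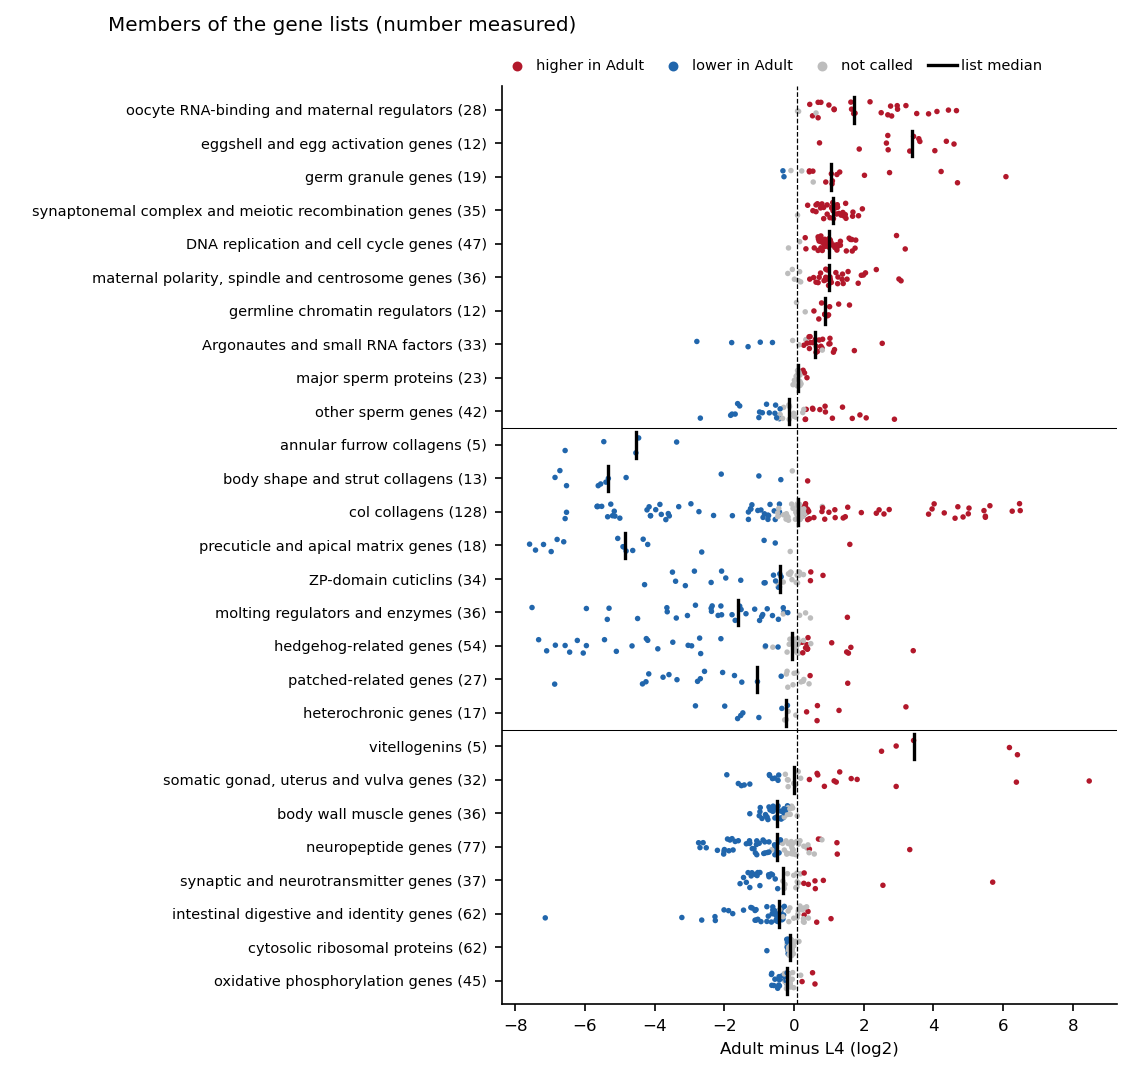
Adult minus L4 difference (log2) of every measured member of 27 gene lists, with the number measured in brackets, coloured by call, a black bar at the list median and a dashed line at the median of all genes (0.08). Germline lists at the top lie right of the line except for sperm, most epidermal lists in the middle reach far to the left, and the muscle, ribosomal and respiratory lists at the bottom stay close to it.

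Products of the larval epidermis were among the deepest falls. All 5 annular furrow collagens, which mark the grooves between cuticle rings, were lower in Adult, with a median of -4.54. dpy-7 had 6.63, 6.88, 6.83, 6.82 and 6.73 in Adult, against 12.71, 12.18, 11.87, 12.08 and 12.35 in L4, 44.1-fold lower in Adult. dpy-8 was at least 84.0-fold lower. Among 13 collagens known from blistered, rolling or dumpy mutants, 11 were lower and 1 was higher, with a median of -5.33. bli-1, a collagen of the struts that join the layers of the adult cuticle, had 6.46, 6.91, 6.58, 6.47 and 6.40 in Adult, against 13.11, 13.04, 13.02, 13.21 and 13.10 in L4. The groups lay 92.4-fold apart, and bli-2 (106-fold) and sqt-1 (116-fold) differed as widely.

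The large family of col collagens went both ways. Of 128 genes 40 were higher, 44 were lower and 44 did not pass, shares near those of all genes, and the median was 0.10. Scaling to the hybridisation controls gave 68 higher and 33 lower. The family reached wide extremes, with 16 genes higher by at least 3 and 23 lower by at least 3, while 68 stayed within 1. col-19, a collagen of the adult cuticle widely used as its marker, had 13.52, 12.82, 13.52, 13.50 and 13.44 in Adult, against 7.10, 7.35, 7.38, 6.79 and 6.91 in L4. Every Adult array lay above every L4 array, 76.4-fold on average (adjusted p = 9.89e-14). col-129 rose by 6.49 ± 0.41 with an uneven L4 baseline, since its L4 arrays read 6.37, 5.74, 8.78, 5.64 and 6.76. col-8, named after its values were seen, was 88.9-fold higher. In the other direction col-49 was 92.2-fold lower and col-48 at least 68.1-fold lower.

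Genes of the temporary matrix laid before the cuticle were near background in Adult, with a mean level of 6.01 ± 0.02 against 10.34 ± 0.28 in L4. Of 18 precuticle and apical matrix genes 16 were lower and 1 was higher, with a median of -4.85. lpr-3, a lipocalin of this matrix, had 5.05, 5.06, 5.20, 5.17 and 5.23 in Adult, against 12.75, 12.39, 11.77, 12.31 and 12.44 in L4. All Adult values lay below background, so the level was at least 109-fold lower. lpr-4 was at least 91.8-fold lower and spia-1, which encodes a protein of the furrows, at least 146-fold. noah-1, a zona pellucida (ZP) domain protein of the matrix, averaged 6.76 ± 0.59 in Adult and 11.66 ± 0.23 in L4. Among 34 ZP-domain cuticlins 17 were lower and 3 higher (10 and 9 under scaling to the hybridisation controls), and 16 of the 34 lay below background in both stages. cut-2, a cuticlin, was the furthest, 19.5-fold lower.

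Molting regulators and enzymes were lower in 31 of 36 cases and higher in 1, with a median of -1.62. mlt-11, a protease inhibitor needed for molting, had 4.29, 3.97, 3.75, 4.15 and 4.35 in Adult, against 12.00, 11.85, 11.16, 11.52 and 11.56 in L4, at least 66.7-fold lower in Adult. Other probe sets of mlt-11 gave -7.15 and -6.10, and a further one lay below background in both stages and did not pass. mlt-9 was 41.1-fold lower and qua-1, a hedgehog-related protein of the molt, at least 24.8-fold. nhr-23, a nuclear receptor that drives molting genes, did not follow them. Its levels were 8.94, 8.36, 8.90, 9.01 and 8.86 in Adult and 9.05, 8.69, 8.58, 8.47 and 8.48 in L4, which overlap (adjusted p = 0.626, 0.16 ± 0.14 SE). It was called higher with array quality weights (0.32) and under scaling to the hybridisation controls (0.51), and lower under no setting tried.

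Of 54 hedgehog-related genes, which encode secreted proteins, 22 were lower and 12 higher, and 18 lay below background in both stages. Under scaling to the hybridisation controls 20 were lower and 23 higher. The warthog class had 9 of 10 wrt genes lower, with a median of -4.69. wrt-2 had 5.48, 5.93, 5.85, 5.90 and 5.73 in Adult, against 12.76, 12.52, 12.45, 12.68 and 12.72 in L4, 115-fold lower in Adult. wrt-4 was at least 92-fold lower and wrt-6 at least 63.8-fold. In the ground-like class 7 of 30 grl genes were higher and 8 lower, shares not far from those of all genes. They ranged from -6.22 to 3.42, and 13 of the 30 lay below background in both stages. Under that scaling 16 were higher and 8 lower. Of 27 patched-related membrane proteins 15 were lower and 2 higher, and ptr-4 was at least 49.4-fold lower. Of 36 astacin proteases 11 were higher and 10 lower, shares near those of all genes, and 18 and 8 under that scaling. Among them nas-20 was at least 32.4-fold higher and nas-29 at least 5.80-fold lower.

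Of 11 genes of epidermal identity and seam cells 3 were higher and 4 lower, shares not far from those of all genes. The counts turned to 5 higher and 1 lower under scaling to the hybridisation controls. elt-1, the GATA factor of epidermal fate, had means of 6.91 ± 0.30 in Adult and 7.01 ± 0.32 in L4 and did not pass. eff-1, the fusogen that joins epidermal cells, was at least 4.28-fold lower, whereas egl-18, a GATA factor of seam cells, was higher by 1.00 and, on another probe set, by 2.02. Of 17 hemidesmosome and junction genes 10 were lower and 3 higher, and dlg-1, a junction scaffold, fell by 1.54 ± 0.16. Of 20 epidermal antimicrobial peptides 9 were lower and 1 was higher (8 and 7 under scaling to the hybridisation controls). cnc-3 was 21.9-fold lower and nlp-27 5.56-fold higher, and the median of this list had the opposite sign (0.02) over the 7 members free of shared probes.

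The heterochronic genes, which time the change from larval to adult skin, gave 8 lower and 5 higher of 17, with a median of -0.22 that became 0.12 under scaling to the hybridisation controls. lin-42, the Period homolog that cycles with the molts, had 7.51, 7.73, 7.62, 7.56 and 7.71 in Adult, against 10.45, 10.67, 10.36, 10.40 and 10.36 in L4, 7.09-fold lower in Adult. Another probe set of lin-42 lay near background and did not pass (-0.23). lin-29, the factor that sets the adult skin program, had 9.03, 7.87, 8.91, 8.82 and 9.0 in Adult, against 11, 11.11, 10.06, 10.72 and 10.70 in L4. It was 3.98-fold lower in the same Adult arrays in which col-19 was high, and Adult replicate 2 read the lowest for both genes. mab-10, a cofactor of lin-29, was at least 2.46-fold lower, and hbl-1, an earlier timer, was 2.89-fold lower, with another probe set below background in both stages that did not pass.

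lin-41 went the opposite way. It had 9.91, 9.12, 9.55, 9.93 and 9.78 in Adult, against 6.48, 6.01, 7.00, 6.21 and 6.55 in L4, 9.26-fold higher in Adult, and a further probe set gave 1.51. This gene is known both as a larval timer of the skin and as a regulator of oocytes, and it counts in both lists. lin-28, an early timer, passed narrowly with overlapping stages (0.36 ± 0.12, adjusted p = 0.0241) and lost its call under cyclic loess, a repeated quantile normalization, a fit of the Adult and L4 arrays alone (adjusted p = 0.0655) and the removal of any of 6 arrays (Adult replicates 1, 3, 4 and 5, L4 replicates 3 and 4), the removals giving adjusted p between 0.0521 and 0.0682. Its 2 other probe sets, both near background, were called higher (0.54 and 0.67). mab-10 and hbl-1 were named after their values were seen.

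**Figure D3:**
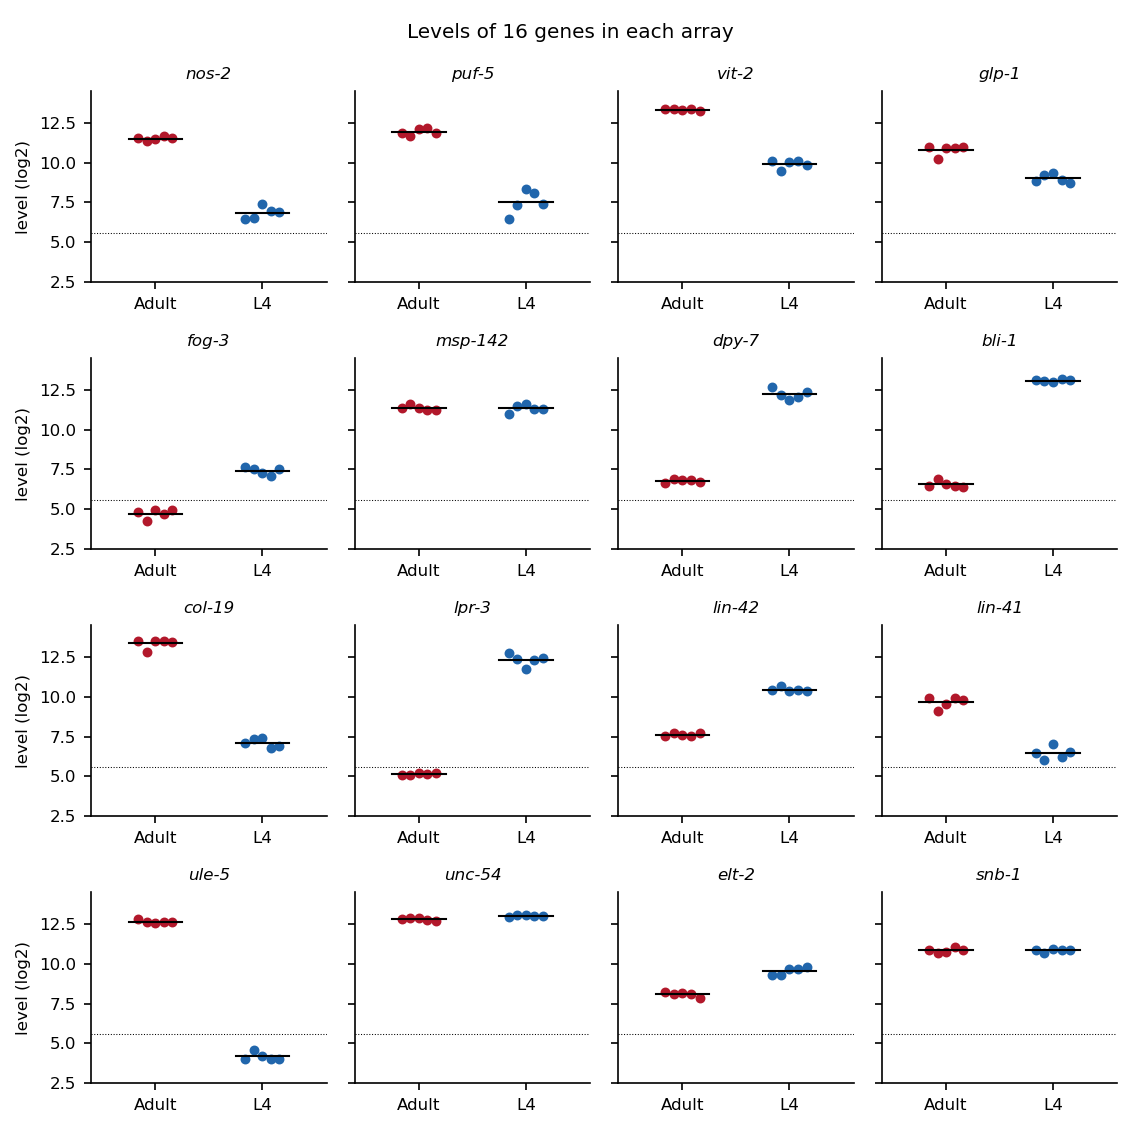
Level (log2) of 16 genes in each array, with 5 Adult points left of 5 L4 points in each panel, black bars at the means and a dotted line at the background level of 5.56. nos-2, puf-5, vit-2, col-19, lin-41 and ule-5 sit higher in every Adult array, dpy-7, bli-1, lpr-3 and lin-42 lower in every one, and msp-142 and snb-1 overlap.

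Yolk genes of the soma rose as a group. All 5 vitellogenins, made by the intestine and exported to oocytes, were higher, with a median of 3.43. vit-2 had 13.40, 13.38, 13.31, 13.35 and 13.28 in Adult, against 10.09, 9.45, 10.03, 10.09 and 9.88 in L4, 10.8-fold higher in Adult. vit-5 had 13.57, 13.61, 13.89, 13.85 and 13.41 in Adult, against 7.35, 5.68, 8.56, 7.67 and 7.03 in L4. The Adult arrays were near the top of the array's range, and the L4 arrays of vit-5 were spread widely (SD 1.05). The probe sets of vit-4 and vit-5 share probes with related genes.

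Other intestinal genes leaned the other way. Of 62 digestive and identity genes 40 were lower and 4 higher, with a median of -0.44. elt-2, the GATA factor of the intestine, had 8.23, 8.08, 8.19, 8.10 and 7.82 in Adult, against 9.27, 9.27, 9.66, 9.66 and 9.79 in L4, 2.72-fold lower in Adult without overlap. spp-13, a saposin-like antimicrobial gene, had 4.66, 5.36, 5.28, 4.85 and 4.43 in Adult, against 12.08, 12.19, 11.54, 12.26 and 12.20 in L4. It was at least 90.0-fold lower, far more than lys-3 (9.30-fold) and asp-8 (6.30-fold), a lysozyme and an aspartyl protease. Under scaling to the hybridisation controls 22 were lower and 17 higher, with a median of -0.52 relative to that of all genes. Of 17 fatty acid desaturases and elongases 9 were lower and 1 higher, and under that scaling 2 were lower and 2 higher, with a median of 0.06 against -0.28. elo-4, an elongase, was 13.1-fold lower.

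The somatic gonad and the organs of egg laying gave 12 higher and 11 lower of 32, shares not far from those of all genes. Scaling to the hybridisation controls gave 16 higher and 6 lower. ule-5, of the uterine lumen-expressed genes, had 12.79, 12.61, 12.56, 12.66 and 12.65 in Adult, against 4.04, 4.59, 4.23, 4.03 and 3.99 in L4. L4 was below background in every array, and the gene was at least 137-fold higher in Adult. ule-1 was at least 79.5-fold higher and ule-4 7.62-fold, whereas the probe sets of ule-3, named after its values were seen, disagreed, at -1.27 for the shared-probe one and 7.80 for the other. All 8 sqv genes, which make the sugar chains that expand the vulva and coat the embryo, were higher by 0.44 to 1.64. inx-8 and inx-9, innexins of the gonadal sheath that couple to germ cells, were 3.50-fold and 2.22-fold higher, and were named after their values were seen.

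Neuronal genes leaned lower, with exceptions. Of 77 neuropeptide genes 43 were lower and 6 higher, with a median of -0.49. Under scaling to the hybridisation controls 33 were lower and 20 higher, with a median of -0.56 relative to that of all genes. nlp-12, a cholecystokinin-like peptide gene of a tail neuron, had 9.38, 9.82, 9.25, 9.35 and 9.40 in Adult, against 11.95, 12.20, 12.13, 12.23 and 12.19 in L4, 6.50-fold lower in Adult. nlp-20 was 6.66-fold lower and nlp-26 9.96-fold higher. Of 37 synaptic and transmitter genes 18 were lower and 8 higher. Under that scaling 14 were lower and 15 higher, with a median of -0.4 relative to that of all genes. snb-1, the synaptobrevin of all neurons, had 10.87, 10.69, 10.77, 11.04 and 10.87 in Adult and 10.87, 10.69, 10.92, 10.89 and 10.89 in L4, and did not pass, although it was called higher (0.34) under scaling to the hybridisation controls.

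The enzymes of octopamine and tyramine synthesis stood out among them. tbh-1, which makes octopamine, had 10.83, 11.15, 10.80, 10.97 and 10.80 in Adult, against 4.51, 5.70, 6.03, 5.01 and 4.81 in L4, at least 37.5-fold higher in Adult. tdc-1, the enzyme before it, was 5.87-fold higher, and other probe sets of the gene gave 0.94 and 1.67. Both enzymes are known in a few neurons and in the gonadal sheath, and their source in these whole animals was not tested. In the class of touch-neuron mec genes 12 of 16 were lower, led by mec-17, a tubulin acetyltransferase (3.86-fold), and in the secreted immunoglobulin-domain class zig 10 of 12 were lower, led by zig-6 (8.78-fold).

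Body wall muscle genes were lower by small amounts. Of 36, 28 were lower and none higher, with a median of -0.49 and no difference below -1.27. tni-1, a troponin I, had 10.91, 10.92, 10.79, 10.93 and 10.81 in Adult, against 12.09, 12.01, 12.20, 12.17 and 12.26 in L4, 2.42-fold lower in Adult. unc-54, the main myosin heavy chain of the body wall, had 12.79, 12.89, 12.85, 12.74 and 12.70 in Adult, against 12.94, 13.06, 13.05, 13.01 and 12.99 in L4. The stages did not overlap, yet the difference was only -0.22 (adjusted p = 0.0179). It did not pass under cyclic loess (-0.15), median-centring (-0.01), a repeated quantile normalization (-0.13) or without Adult replicate 5 (-0.19). Under scaling to the hybridisation controls unc-54 stood at 0.13, not called, and 12 of the 36 genes were lower and 3 higher. The list median there was -0.57 relative to that of all genes. Pharyngeal muscle gave 3 lower and 2 higher of 13 (3 and 3 under that scaling), and its myosin myo-2 did not pass (7.81 ± 0.22 in Adult, 7.78 ± 0.22 in L4).

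Cytosolic ribosomal proteins hardly differed, with 8 of 62 lower, none higher and a median of -0.12 that became 0.23 under scaling to the hybridisation controls, with 38 higher and 1 lower. rpl-11.2, on the X chromosome, was the exception in size, 1.72-fold lower. Of 45 oxidative phosphorylation genes 18 were lower and 3 higher. Under that scaling 2 were lower and 9 higher, while the list median stayed below that of all genes (0.14 against 0.42). A pair of genes for the same subunit of ATP synthase parted ways, with the somatic form asb-2, on X, lower (-0.65 ± 0.14, with overlapping stages) and the germline form asb-1, on chromosome III, higher (0.53 ± 0.08). asb-2 kept its sign but not its call under that scaling (-0.31). asb-1 was named after its values were seen.

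Among heat shock genes 9 of 21 were lower and 4 higher, with a median of -0.24 that became 0.11 under scaling to the hybridisation controls. hsp-16.2, a small heat shock protein induced by stress, had 6.88, 5.91, 7.04, 7.75 and 7.13 in Adult, against 12.26, 12.56, 11.48, 12.30 and 12.02 in L4, 36.3-fold lower in Adult. hsp-16.41 was at least 32.2-fold lower, while hsp-43 was 5.00-fold higher. Of 34 histone genes 12 were lower and 8 higher, shares not far from those of all genes, and 10 and 16 under that scaling. Of 8 linker hil genes 5 were higher.

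Of 19 Skp1-related genes, adaptors of ubiquitin ligases, 10 were higher and 5 lower, and their median of 0.65 became -0.07 over the 10 genes left by a filter on dim probe sets. skr-7 had 8.92, 9.28, 8.97, 9.13 and 8.90 in Adult, against 3.54, 3.41, 3.51, 3.44 and 3.17 in L4, at least 11.1-fold higher in Adult. skr-11 and skr-15 were at least 11.4-fold and 10.6-fold higher. Of 38 bath genes 29 were higher and 5 lower, against 10 higher and 15 lower of 47 math genes, which turned to 26 higher and 12 lower under scaling to the hybridisation controls. The F-box genes gave 109 higher and 67 lower of 310, with 185 below background in both stages and a median of 0.16 that became -0.36 over the 76 genes left by the dim filter. fbxc-32 was at least 14.8-fold higher and fbxa-157 17.4-fold lower. Nuclear hormone receptors gave 89 lower and 46 higher of 254 (53 and 118 under scaling to the hybridisation controls), and nhr-234 was 22.5-fold lower. Chemoreceptors could hardly be read, since 1243 of 1275 lay below background in both stages.

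Of the 165 gene-name classes with at least 10 measured genes, 38 had at least 60% of their genes called in the same direction. Of 15 taf genes, subunits of the TFIID complex, 13 were higher, led by taf-11.2 (11.8-fold), and of 16 mdt genes, of the Mediator, 12 were higher. Of 26 nuclear pore genes 21 were higher and none lower, by at most 0.99. Of 27 set genes, for SET-domain histone methyltransferases, 18 were higher, and 10 of 13 ced genes of cell death and engulfment were higher, among them ced-9, the inhibitor of the death program (2.27-fold). The bus class, found in mutants whose cuticle surface resists bacteria, was lower in all 14 genes, with a median of -3.80, and bus-5 was at least 33.9-fold lower. The tetraspanin class tsp (11 of 17), the neprilysin class nep (17 of 25) and the peroxisome class prx (8 of 11) were also lower. Under scaling to the hybridisation controls the lower calls were 14 for bus, 11 for tsp, 12 for nep and 5 for prx, against 0, 5, 5 and 2 higher calls.

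Position in the genome went with direction. On chromosome X 23.5% of 2353 genes were higher and 39.8% lower, whereas chromosome I had 38.4% higher and 24.6% lower of 2469 and chromosome III 37.6% higher and 27.5% lower of 2253. Chromosome V came near X in its higher share (24.2% of 4317), with 26.3% lower. Among chromosomes I to V and X, X had the smallest share of higher and the largest share of lower calls also when only genes above background in either stage were counted (24.2% and 50.8%) and under scaling to the hybridisation controls (45.3% and 24.9%). The largest rises did not follow this. Of the 270 genes higher by at least 3, X held 71 (26.3%), although it carries 13.7% of all measured genes, and chromosome III held 14 (5.2%), although it carries 13.2%. Of the 8 largest rises 6 were on X. They include ZK813.1 with ZK813.2 and Y62H9A.3 with Y62H9A.4, pairs that share the first part of their sequence names. ZK813.1, Y62H9A.3, stha-3 and ule-5 are read from probe sets that share probes. Probe sets free of shared probes gave 6.89 for ZK813.1 and 8.41 for ule-5. Among the 371 genes lower by at least 3, X held 77 (20.8%). Germline list genes were rare on X (16 of 372, 4.3%), and so were soma list genes (197 of 2945, 6.7%). The soma share depends on the families listed, since 1275 of these genes are chemoreceptors, 1243 of them below background in both stages. Epidermal list genes were not (77 of 411, 18.7%).

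**Figure D4:**
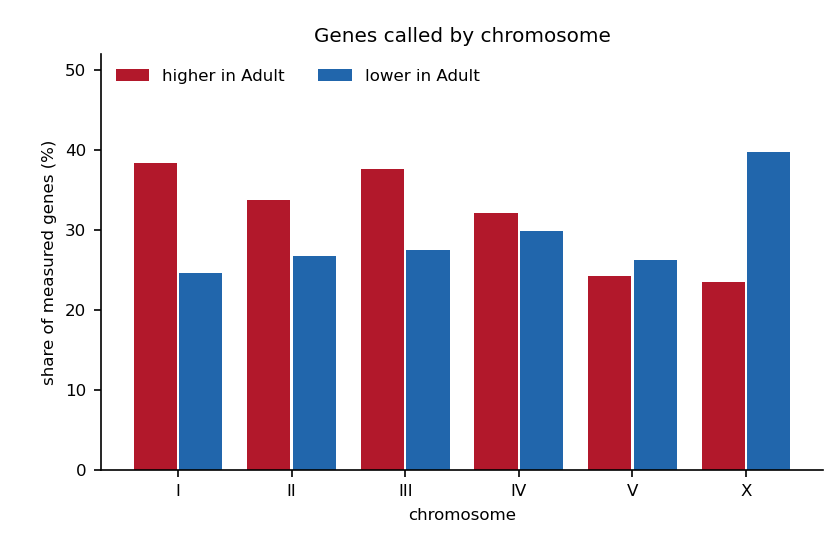
Share of measured genes (%) on chromosomes I to V and X that were higher in Adult (red bars) or lower in Adult (blue bars). On X the lower share (39.8%) exceeds the higher share (23.5%), on V slightly so (26.3% against 24.2%), while chromosomes I and III show the reverse.

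The genes with the widest differences were often without a given name. Of the 270 genes higher by at least 3, 53.7% carry only a sequence name, and 45.6% of the 371 lower ones do, against 39.3% of all measured genes. ZK813.1 had the largest rise, with 13.33, 13.20, 13.21, 13.24 and 13.20 in Adult, against 4.50, 5.18, 4.53, 4.40 and 4.31 in L4, at least 204-fold higher in Adult. A further probe set of the gene gave 6.89. stha-3 (at least 159-fold), W02D9.7 (145-fold), Y62H9A.4 (94.0-fold), Y62H9A.3 (88.2-fold), Y57G11B.5 (86.8-fold) and ZK813.2 (57.1-fold) followed, all bounds because L4 was below background. The deepest falls without a name were Y102A11A.5 (at least 85.5-fold), Y37A1B.7 (93.2-fold), T06G6.6 (76.4-fold) and Y11D7A.5 (44.1-fold), all bounds because Adult was below background.

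Most markers of embryos and males lay below background in both stages, with exceptions. Zygotic embryo genes, which embryos inside an adult would switch on, were higher in 8 of 15 cases (53.3%, against 30.8% of all genes). Of the 15, 10 lay below background in both stages. The mean level of the list was 4.88 ± 0.11 in Adult and 4.38 ± 0.08 in L4. end-1, a gut-specifying factor of early embryos, was below background in both stages and did not pass, though it was called higher with array quality weights and under 2 other scalings. ceh-51 and sdz-38 passed with Adult levels just above background (6.00 ± 0.19 and 5.79 ± 0.18). tbx-9, a T-box factor, was far higher, with 8.94, 9.61, 9.14, 9.10 and 9.06 in Adult, against 4.34, 4.91, 4.80, 4.76 and 4.74 in L4. Of 12 male-specific genes 9 were below background in both stages, and lov-1, a male sensory gene, read 3.21 ± 0.08 in Adult and 3.20 ± 0.20 in L4. The part of embryos in the germline results was not tested.

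The lethargus arrays, taken between the 2 stages, did not sit midway for every list. The mean of the vitellogenins was 9.14 ± 0.50 in L4, 12.56 in lethargus and 13.43 ± 0.07 in Adult, and the eggshell list had 9.06, 11.08 and 12.19 in the same order. DNA replication and cell cycle genes were at 9.50 ± 0.11 in L4 and still at 9.57 in lethargus, and at 10.60 ± 0.05 in Adult. Synaptonemal complex and recombination genes did likewise (9.26, 9.43 and 10.37). Annular furrow collagens had 11.84 in L4, 7.02 during lethargus and 6.96 in Adult, and precuticle genes at 10.34, 6.69 and 6.01. Over all called genes the lethargus mean lay nearer Adult than L4 for 19% of the higher and 34.1% of the lower genes. Many means were not between the stages. Lethargus lay beyond L4 for 1512 of 5274 higher and 1494 of 4912 lower genes, and beyond Adult for 357 and 501. These positions share the L4 and Adult arrays with the calls and are a description.

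**Figure D5:**
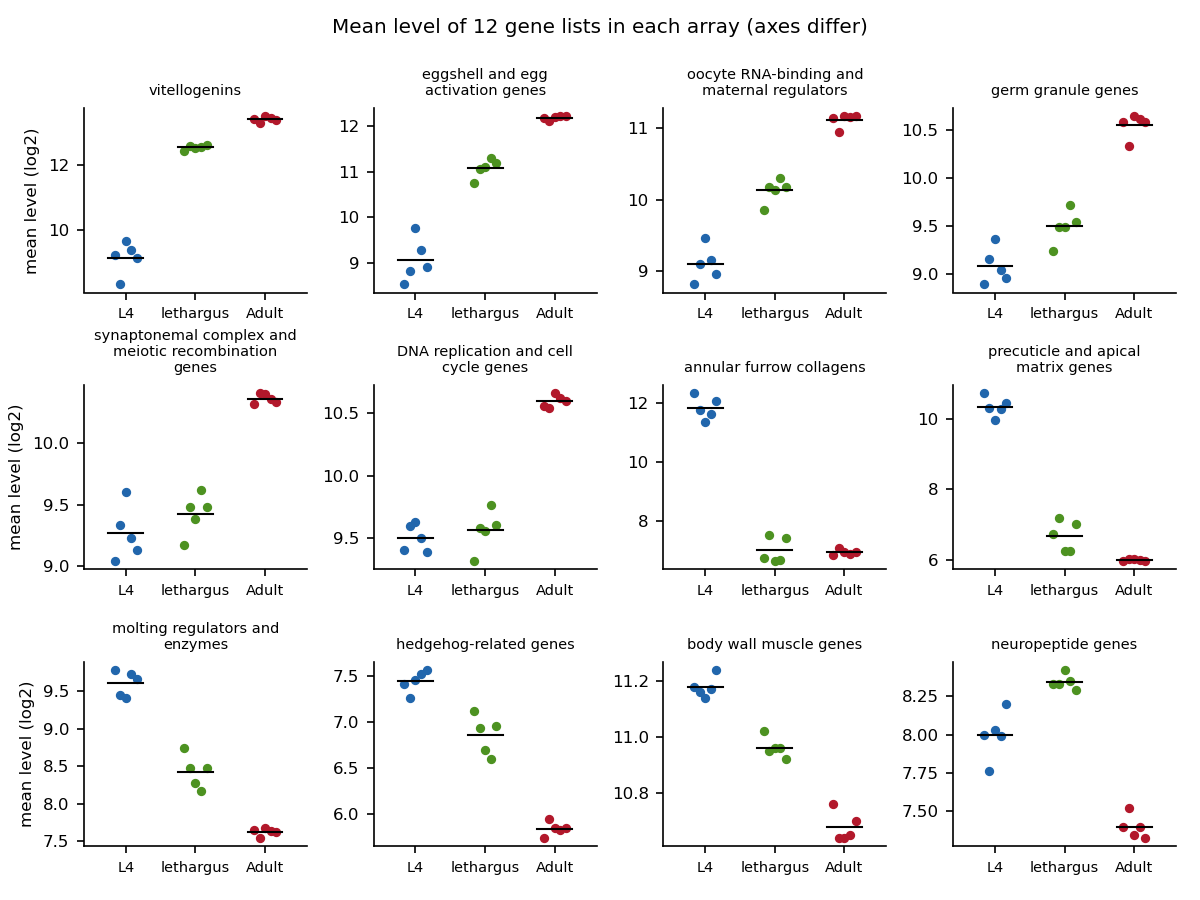
Mean level (log2) of 12 gene lists in each of the 15 arrays, in the order L4, lethargus and Adult, with black bars at the stage means and a separate scale in each panel. Vitellogenin and eggshell levels are well above L4 by lethargus, DNA replication and cell cycle levels are not (9.57 against 9.50), and annular furrow collagens have already reached the Adult level.

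Within L4, the pools differed in parallel over several genes. L4 replicate 3 was the highest of its stage for nos-2, puf-5, pos-1, perm-2 and vit-5 and the lowest for dpy-7, lpr-3 and mlt-11. L4 replicate 1 was the lowest for nos-2, puf-5 and pos-1 and the highest for dpy-7, lpr-3 and mlt-11. For perm-2 and vit-5 the lowest was L4 replicate 2 (7.62 and 5.68). None of the Adult and L4 values of these 8 genes, picked with their values seen, overlapped. Not all epidermal genes shared this order, since wrt-4 read 11.72 in L4 replicate 1 and 12.31 in L4 replicate 3. The SD between pools was wider in L4 than in Adult for the oocyte list (0.10 in Adult, 0.24 in L4), the eggshell list (0.05 and 0.47) and the precuticle list (0.02 and 0.28). Other lists went the other way. Among them were the Notch list (0.34 in Adult, 0.12 in L4), nuclear pore genes (0.19 and 0.10) and body shape collagens (0.11 and 0.04).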

How the data were processed

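Whole hermaphrodites were measured on Affymetrix C. elegans Genome Arrays, 5 pools each of Adult, L4 and lethargus. Per the labels' protocols, RNA was amplified with NuGEN Ovation V2, and the authors excluded 1 sample in each stage. The authors deposited log2 values made by RMA, per the submitters' processing notes, which background-corrects, quantile-normalizes and summarises probes; depth has no meaning here, and the number of arrays limits the precision. Of 22625 probe sets, 22548 that are not controls were tested with limma 3.58.1 (R 4.3.3) on 3 stage means; p-values of Adult minus L4 were multiplied by 2 and adjusted by Benjamini-Hochberg, which follows the series' design text for its own comparisons of lethargus with either stage. Genes were named from the platform annotation: 20766 probe sets named 1 gene, 887 several and 895 none. Of those with 1 gene, 20701 matched the RefSeq gene table. Each of 17118 genes is read from the probe set with its highest mean level, and 4424 of them from probe sets whose probes match other transcripts. The background level was chosen after the data were seen.

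The 51 gene lists and the members were chosen with earlier results of these data known. Named are the 8 largest rises and falls without overlap, the 3 furthest members of each list, at most 2 members of a gene-name class, a set of marker genes, and genes said to be named after their values were seen. Alternatives covered normalization, filters, probe set choice, array weights, left-out arrays and a replicate block; median-centring and hybridisation scaling remove differences in overall brightness differently. Samples were treated as unpaired. The fit was tested on simulated data. Python 3.11.15, pandas 2.3.3 and matplotlib 3.10.9 were used for counts and figures. No sequences are printed.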

Additional observations from a re-analysis of the deposited data

Results flagged for a closer look

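Among the 139 genes named, 278 stage groups of 5 arrays were examined for an array far from the other 4, relative to the range of the group, and 27 values stood apart. By chance about 1 in 20 groups does. Adult replicate 2 was the array in 18 of the 27 cases.

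In Adult replicate 2, germline genes stood apart in both directions. The stem cell genes glp-1 (10.24, the others 10.93 to 10.98) and lst-1 (10.49, the others 11.16 to 11.25) were low, as were par-2 (9.91, others from 10.61) and perm-2 (12.74, others from 13.02). The meiotic genes lab-1 (11.16, others up to 11.03) and syp-1 (10.90, others up to 10.50) were high, and so was skr-15 (9.55, others up to 8.91). Genes of skin and timing were low in the same array, namely col-19 (12.82, others from 13.44), dlg-1 (8.18, others from 9.0), lin-29 (7.87, others from 8.82), lin-28 (9.53, others from 10.15) and nhr-23 (8.36, others from 8.86). Further low values were ced-9 at 7.64 and Y57G11B.5 at 11.82, and further high values were nlp-12 at 9.82, nhr-234 at 6.65, ttr-50 at 10.59 and Y62H9A.3 at 12.36. Leaving this array out changed none of the calls of these 18 genes, and the cause was not tested.

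In the other Adult arrays, T06G6.6 read 4.35 in replicate 1, qua-1 4.49 in replicate 3 and ule-1 12.19 in replicate 4. In L4 arrays, fer-1 was low in replicate 1 (7.98, others from 8.27). L4 replicate 2 read 10.67 for lin-42, 5.18 for ZK813.1 and 10.69 for snb-1. L4 replicate 3 was low for spp-13 (11.54, others from 12.08) and high for W02D9.7 (5.47, others up to 4.92).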

How the results depend on the processing

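Median-centring gave 8440 genes higher, hybridisation controls 9851 higher and 3191 lower, and a difference of at least 1 in size 1911 higher and 2322 lower. Leaving out each Adult or L4 array in turn gave 4833 to 5416 higher and 4683 to 5108 lower. A replicate block gave 5109 higher and 4764 lower, but same-numbered arrays correlated at only -0.111 to 0.132 in their deviations from stage means. Of 139 named genes, 3 lost their call, 5 gained one and 3 turned in sign in any setting with no minimum difference.

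Over all lists and settings, 124 list medians moved by more than the SD between arrays, apart from the turns of sign below. Large moves came from the filter on dim probe sets, to -3.43 for hedgehog-related (24 genes), -2.31 for patched-related (14) and -2.08 for ZP-domain genes (9). For the main lists the moved medians were as follows. Oocyte regulators were at 2.24 (mean of probe sets), 2.69 (probe set with the largest spread), 2.07 (hybridisation controls) and 1.15 (no shared probes). Median-centring gave 1.21 for DNA replication, 0.31 for major sperm proteins, -1.41 for molting, -0.28 for body muscle, -0.28 for neuropeptides and -0.23 for intestine. Hybridisation controls gave 1.46 for the synaptonemal list, 1.34 for DNA replication, 0.45 for major sperm proteins, 0.20 for other sperm genes, -4.50 for precuticle, -1.28 for molting, -0.15 for body muscle, -0.14 for neuropeptides and -0.10 for intestine. The probe set with the largest spread gave 1.17 for DNA replication, -5.31 for furrow collagens and -0.56 for body muscle. Leaving out shared probes gave -1.18 for molting and -0.57 for body muscle, which was -0.56 with array weights and -0.57 under cyclic loess. Neuropeptides were at -0.83 without dim probe sets.

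Among lists whose median exceeded its SD between arrays, the sign turned under hybridisation controls for heterochronic (0.12), synaptic (0.02), fatty acid (0.06), transthyretin-like (0.12), detoxification (0.18), ribosomal (0.23), oxidative phosphorylation (0.14) and heat shock genes (0.11), and for snb-1 (0.34) and unc-54 (0.13). ule-3 turned from its shared-probe value with the mean of its probe sets (3.27), without shared probes (7.80) and with the largest spread (7.80). The sign turned under median-centring for detoxification (0.04), ribosomal (0.09) and oxidative phosphorylation genes (0.01). Without dim probe sets it turned for Skp1-related (-0.07), F-box (-0.36) and chemoreceptor genes (-1.09), the last also under cyclic loess (-0.04). Antimicrobial peptides turned without shared probes (0.02). Medians closer to 0 changed sign as well, among them other sperm (0.20), nuclear hormone receptor (0.29) and hedgehog-related genes (0.28) under hybridisation controls, and C-type lectins (-0.72) and astacins (-0.07) without dim probe sets. Centring itself shifts every gene by the same amount; other causes were not tested.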

Other observations

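Groups not described above were mixed. Of 220 C-type lectins, sugar-binding proteins often linked to immunity, 43 were higher and 57 lower in Adult, against 145 higher and 43 lower under scaling to the hybridisation controls, and clec-222 rose by 5.57 while clec-180 fell by 5.28. Of 177 detoxification genes of the cytochrome P450, UGT and GST families 72 were lower and 38 higher, with a median of -0.17 that became 0.18 under scaling to the hybridisation controls. Of 40 transthyretin-like genes 16 were lower and 9 higher, a median of -0.23 that became 0.12 under that scaling, and ttr-50 rose by 4.22. The abu and pqn genes, for glutamine- and asparagine-rich proteins of which many line the pharynx, gave 18 lower and 16 higher of 58. These shares were near those of all genes, and under that scaling 11 were lower and 30 higher. In the main fit abu-13 fell by 6.49. Of 33 proteasome subunits 12 were higher and 1 lower (30 and 1 under that scaling). Mitochondrial ribosomal proteins gave 10 higher and 3 lower of 58, and 45 did not pass. Without Adult replicate 2 they gave 18 higher and 3 lower, and under scaling to the hybridisation controls 35 higher and 0 lower.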
